A study of Homo sapiens with 10 samples.

Results

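MM.1S cells with DNMT1 knocked down were compared directly with MM.1S cells with HDAC3 knocked down. MM.1S is an established human multiple myeloma cell line, a tumour of antibody-secreting plasma cells. The cells were infected with lentivirus carrying a short hairpin RNA, and total RNA was taken 48 h later and measured on Affymetrix 3' expression arrays. The series holds 10 arrays, and the comparison uses 8 of them: 2 arrays each of the hairpins shDNMT1#1 and shDNMT1#2, and 2 each of shHDAC3#1 and shHDAC3#2. The 2 arrays of the luciferase hairpin shLuc entered no test, and their levels are given only as a description. Each gene was represented by 1 probe set, the one with the highest mean signal over the 10 arrays among those annotated to a single symbol, which gave 19775 genes. The genes described are those for which both DNMT1 hairpin means lay above both HDAC3 hairpin means, or both lay below them, here called separated. The distance between the 2 nearest means of different targets is called the gap. It is negative where DNMT1 knockdown was the lower.

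DNMT1 is the maintenance methyltransferase that copies DNA methylation onto the new strand after replication, and loss of the enzyme lets methylation fade as cells divide. HDAC3 is the catalytic subunit of the co-repressor complexes NCoR and SMRT and removes acetyl groups from histones and other proteins. Both enzymes are linked to gene silencing, and both have been studied as growth-supporting factors in myeloma. Plasma cells carry a large endoplasmic reticulum (ER), and their secretory genes depend on the transcription factors IRF4, PRDM1 and XBP1.

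Nothing in the labels says that arrays of 1 hairpin are separate cultures. The p-values therefore measure only how these arrays vary, which may be technical. They name shLuc as the control of the HDAC3 hairpins. Whether DNMT1 and HDAC3 arrays were infected, hybridized and normalized together the sources used here do not give, so that a batch and the targeted gene cannot be told apart. All 10 myeloma markers checked had signals between 5.89 and 13.3 (log2), with JCHAIN, the joining chain of secreted antibodies, at 12.6 to 13.3. Of 6 T and NK cell markers, 5 had a mean under 5. In the other lists fewer did: 1 of 5 B cell, 1 of 4 myeloid, 2 of 6 fibroblast, 2 of 6 epithelial and 0 of 3 erythroid markers. Single signals reached 8.16 in the B cell and 8.68 in the fibroblast list. No measured marker of the 6 other cell types checked was called between the knockdowns. In bulk RNA, fewer cells of a type and less RNA per cell cannot be told apart. The shHDAC3#1 arrays stood apart from the other 6. On the first principal component of the 8 arrays, with 36.2% of the variance, they lay at -26.6 and -27.7 and the others between 1.01 and 15.0. For ACTB, the probe set at the 3' end exceeded the one at the 5' end, which reads how complete the RNA is, by 0.985 and 1.02 (log2) in the shHDAC3#1 arrays and 0.635 to 0.807 in the other knockdown arrays. The targets were separated on the third component, with 14.6% of the variance, where the DNMT1 arrays lay between 3.56 and 14.0 and the HDAC3 arrays between -18.1 and -0.11.

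How many genes differed between the knockdowns depended on how the 2 hairpins of a target were treated. With the 4 hairpins as fixed groups, 1782 genes (9.01%) were called with limma at an adjusted p under 0.05, 1124 (5.68%) higher and 658 (3.33%) lower in DNMT1 knockdown. Of the called genes, 25 were higher and 15 lower by at least 2-fold. Separated hairpin means were found for 5925 genes (30%), in 3426 with DNMT1 knockdown above and in 2499 with it below. Genes both called and separated numbered 1040 (5.26%), of which 690 (3.49%) were higher and 350 (1.77%) lower. Separation was read from the same values as the test and is a description. In 524 of these 1040 genes all 4 arrays of 1 knockdown lay above all 4 of the other, against 1029 genes (5.2%) among all genes tested. With the hairpin as a random block, so that variation between hairpins of 1 target entered the error, 6 genes were called: TRIM22, MPDU1, CDC23, IFITM1 and NUCB2 as higher and DNMT1 as lower. Leaving out shHDAC3#1 gave 888 called genes (377 higher), and leaving out shHDAC3#2 gave 2787 (1806 higher). Without shDNMT1#1 there were 3488 (1783 higher, 1705 lower) and without shDNMT1#2 1390 (280 lower). Counts of list members under these settings, given below, are to be read against these counts over all genes.

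Hairpins of the same target differed in about as many genes as hairpins of different targets did. At 2 arrays against 2, the 4 pairs of a DNMT1 and an HDAC3 hairpin gave between 1105 (5.59%) and 3370 (17%) called genes. The 2 DNMT1 hairpins differed from each other in 2245 genes (11.4%), and the 2 HDAC3 hairpins in 2391 (12.1%). Both pairs with shHDAC3#1 had more called genes than the pair of the same DNMT1 hairpin with shHDAC3#2. A total of 84 genes (0.425%) were called in all 4 pairs of different targets with the same sign, 61 higher and 23 lower in DNMT1 knockdown. Of the 12 genes highest and the 12 lowest by gap described below, all but SGTB were among them. The gap is itself the smallest of the 4 pair differences, so that the choice by gap favours such genes.

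**Figure D1:**
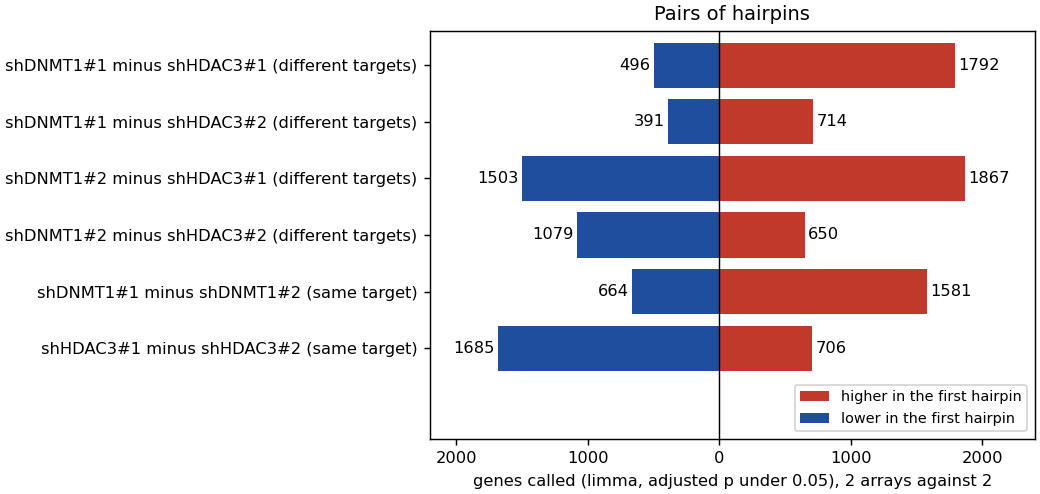
Genes called with limma between pairs of hairpins, 2 arrays against 2, with genes higher in the first hairpin to the right and genes lower in it to the left (horizontal axis, number of genes). The pairs of 1 target, with 2245 and 2391 called genes, lie within the range of the pairs of different targets, 1105 to 3370.

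Each targeted gene was lower in its own knockdown. DNMT1 had a log2 signal of 5.763 and 6.004 in the shDNMT1#1 arrays, 6.27 and 6.07 in shDNMT1#2, 7.14 and 7.29 in shHDAC3#1, and 7.64 and 7.89 in shHDAC3#2. The groups did not overlap, and DNMT1 had the widest negative gap of all called genes, -1.04. Its difference was -1.46 ± 0.09 (SE of the log2 difference, 4 arrays against 4, as for all differences below; adjusted p = 6.21e-08, limma). In the shLuc arrays DNMT1 was at 8.49 and 8.33, above all 8 knockdown arrays, the HDAC3 ones included. HDAC3 was at 7.09 and 6.53 in shDNMT1#1, 6.39 and 6.28 in shDNMT1#2, 5.97 and 5.72 in shHDAC3#1, and 5.83 and 5.52 in shHDAC3#2. Here too no array of 1 knockdown reached the other, and the difference was 0.81 ± 0.11 (adjusted p = 0.0002). The shLuc arrays had HDAC3 at 7.26 and 6.61, overlapping with shDNMT1#1. Between the 2 hairpins against it neither target was called. For DNMT1, shDNMT1#1 minus shDNMT1#2 was -0.29 (adjusted p = 0.157, limma). For HDAC3, shHDAC3#1 minus shHDAC3#2 was 0.17 (adjusted p = 0.613), with overlapping arrays. Between the hairpins of the other target DNMT1 was called: shHDAC3#1 minus shHDAC3#2 was -0.55 (adjusted p = 0.00577). HDAC3 was not, with 0.48 for shDNMT1#1 minus shDNMT1#2 (adjusted p = 0.0714). UHRF1, which brings DNMT1 to newly replicated DNA, differed by 0.07 ± 0.08 between the knockdowns (adjusted p = 0.639), with overlapping arrays.

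**Figure D2:**
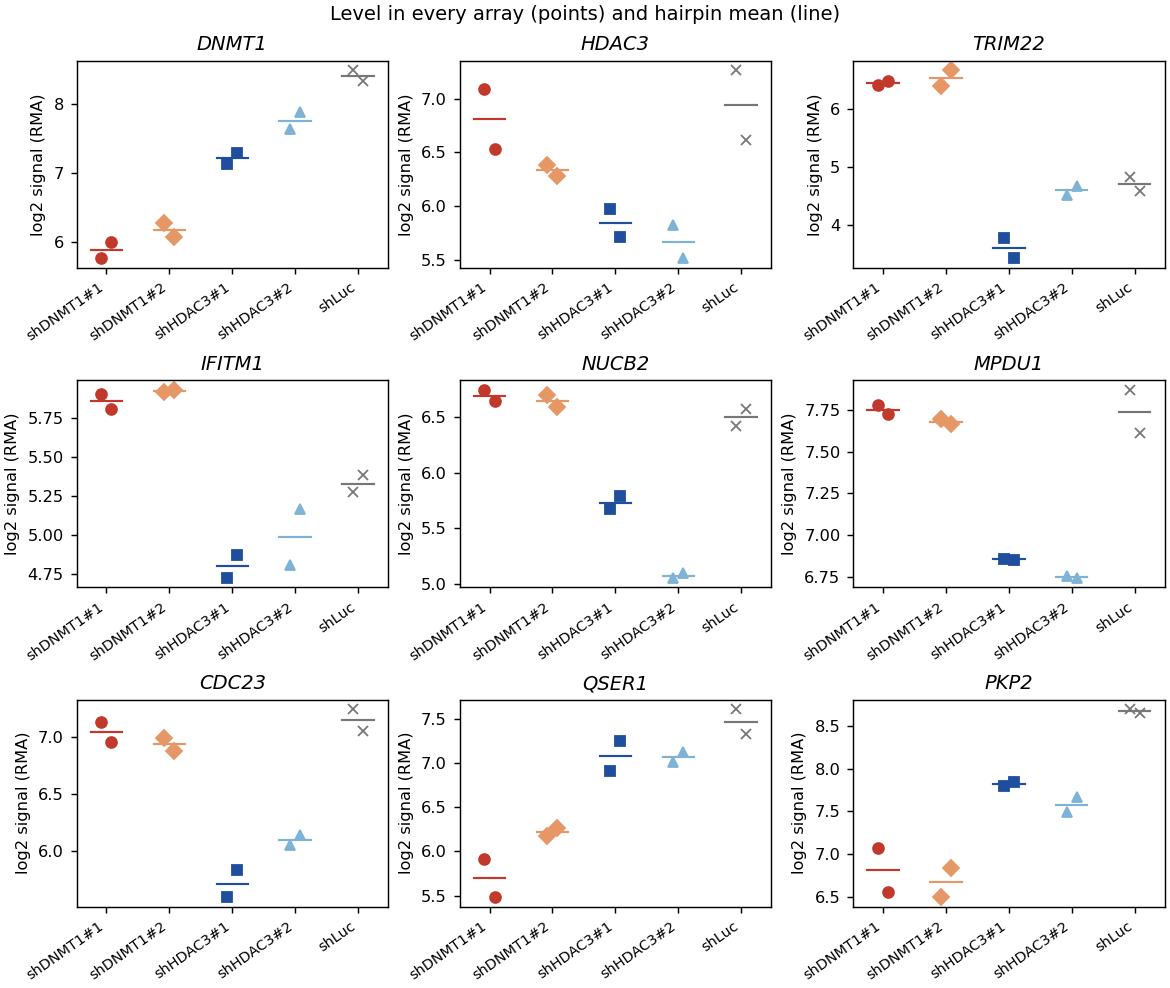
Log2 RMA signal (vertical axes, each panel with its own range) of both targets and 7 genes with wide gaps, by hairpin. Points are arrays, 2 for each hairpin, and lines are hairpin means. In every panel the 4 DNMT1 knockdown arrays and the 4 HDAC3 knockdown arrays do not overlap, and shLuc is shown for reference.

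Among the called and separated genes, those with the widest positive gaps were TRIM22, NUCB2, IFITM1, CDC23, MPDU1, SEC24D, ARFGAP3, RAB4A, ESRP1, SUCO, PLPP5 and HDHD2, with gaps between 0.61 and 1.86. The gene at the top was TRIM22, an interferon-induced antiviral protein of the tripartite motif family. It was at 6.42 and 6.49 in shDNMT1#1, 6.41 and 6.68 in shDNMT1#2, 3.78 and 3.41 in shHDAC3#1 and 4.52 and 4.68 in shHDAC3#2. Both DNMT1 hairpins gave almost the same level, while the HDAC3 hairpins differed by 1.00 from each other. The difference between the knockdowns was 2.40 ± 0.10 (adjusted p = 9.95e-10), and the shLuc arrays, at 4.83 and 4.58, lay near shHDAC3#2. All HDAC3 knockdown and shLuc arrays were under 5, the level taken here as dim, where signals follow RNA amount weakly, so that the size of the difference is less sure than its SE. The same holds for the HDAC3 arrays of ESRP1 and SUCO and for the HDAC3 mean of IFITM1 (4.89), described below. It also holds for the shHDAC3#1 means of SEC24D, IRF9, CXCL10, HLA-DMA, GALNT3 and LAMP3. ESRP1 was under 5 in shDNMT1#1 too, at 4.95 and 4.81, and MAGEB1 was under 5 in all arrays. TRIM5, the restriction factor encoded beside TRIM22, differed by 0.51 ± 0.11 (adjusted p = 0.00485), and TRIM6 of the same gene cluster by 0.07 ± 0.11 (adjusted p = 0.772). IFITM1, an interferon-induced membrane protein that hinders virus entry, was at 5.90 and 5.80 in shDNMT1#1 and 5.91 and 5.93 in shDNMT1#2. In HDAC3 knockdown it was at 4.73 and 4.87 (shHDAC3#1) and 4.81 and 5.17 (shHDAC3#2). All 4 DNMT1 arrays were above all others, shLuc at 5.27 and 5.38 included, and the difference was 0.99 ± 0.09 (adjusted p = 4.07e-06). Its neighbours IFITM2 and IFITM3, of the same family, differed by 0.00 ± 0.09 and 0.07 ± 0.09 and were not called. Both TRIM22 and IFITM1 rest on 1 probe set of a kind that can bind related transcripts.

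For several of the other genes shLuc lay with the DNMT1 knockdown. NUCB2, a calcium-binding protein of the Golgi and secretory pathway, was at 6.75 and 6.64 in shDNMT1#1, 6.70 and 6.59 in shDNMT1#2, 5.68 and 5.79 in shHDAC3#1, and 5.06 and 5.10 in shHDAC3#2. The DNMT1 arrays lay close together, apart from all HDAC3 arrays. The difference was 1.26 ± 0.08 (adjusted p = 8.35e-08). MPDU1, needed to use dolichol-linked mannose in protein glycosylation, varied little within a knockdown. Its 4 DNMT1 arrays lay between 7.66 and 7.78 and its 4 HDAC3 arrays between 6.74 and 6.86, a difference of 0.91 ± 0.06 (adjusted p = 2.63e-07). CDC23, a subunit of the anaphase-promoting complex, ranged from 6.88 to 7.13 in DNMT1 knockdown and from 5.59 to 6.14 in HDAC3 knockdown (1.08 ± 0.08, adjusted p = 4.37e-07). The shLuc means of NUCB2, MPDU1 and CDC23 were 6.50, 7.74 and 7.15, next to the DNMT1 knockdown. A second probe set of CDC23 and one of NUCB2, both dim, gave differences of -0.09 and 0.03, and a second one of MPDU1 gave 0.22.

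The rest of this set held 3 genes of vesicle traffic: SEC24D, which picks cargo for vesicles leaving the ER (1.05 ± 0.16), ARFGAP3, which acts in traffic at the Golgi (1.32 ± 0.10), and RAB4A, a small GTPase of recycling endosomes (0.97 ± 0.08). Their adjusted p-values were 0.00032, 3.32e-07 and 1.94e-06. ESRP1, an epithelial regulator of splicing, differed by 0.89 ± 0.09, SUCO by 0.97 ± 0.09, the lipid phosphatase PLPP5 by 0.81 ± 0.09 and HDHD2 by 0.80 ± 0.07, with adjusted p-values from 1.85e-06 to 3.4e-05. In all of them the 4 DNMT1 arrays lay above the 4 HDAC3 arrays. Other probe sets had the same direction for RAB4A (0.75 and 0.63), ESRP1 (0.45) and PLPP5 (0.44 to 0.75), while 2 dim probe sets of SEC24D gave -0.12 and 0.12.

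The genes with the widest negative gaps were DNMT1, QSER1, PKP2, EVI2B, PTPN11, BOLA3, SGTB, LBR, ANO6, ST3GAL6, DENND6A and NGLY1, with gaps from -1.04 to -0.47. QSER1 is a chromatin protein that shields DNA from de novo methylation together with TET1. It was at 5.92 and 5.48 in shDNMT1#1, 6.18 and 6.26 in shDNMT1#2, 6.91 and 7.25 in shHDAC3#1 and 7.02 and 7.12 in shHDAC3#2. The DNMT1 arrays were all lower than the HDAC3 arrays, and shLuc was higher than both, with a mean of 7.47. The difference was -1.11 ± 0.10 (adjusted p = 3.05e-06), and 3 dimmer probe sets gave -0.33, -0.17 and -0.14. PKP2, a desmosome protein, followed the same order with 6.50 to 7.07 in DNMT1 knockdown, 7.49 to 7.85 in HDAC3 knockdown and 8.70 and 8.65 in shLuc (-0.96 ± 0.10, adjusted p = 1.85e-05). Its other probe set gave -0.46. EVI2B, a membrane protein of blood cells, was at 6.91 to 7.08 in DNMT1 knockdown and at 7.71 to 8.34 in HDAC3 knockdown (-0.98 ± 0.07, adjusted p = 2.6e-07).

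BOLA3, which helps to pass iron-sulfur clusters to mitochondrial enzymes, was at 8.80 and 8.56 in shDNMT1#1 but at 7.51 and 7.53 in shDNMT1#2. The HDAC3 arrays were at 9.70 and 9.85 (shHDAC3#1) and 9.18 and 9.36 (shHDAC3#2). The groups did not overlap, and the DNMT1 hairpins differed from each other by 1.16, close to the difference of -1.43 ± 0.07 between the knockdowns (adjusted p = 9.4e-09). DENND6A, an activator of a Rab GTPase, likewise was lower in shDNMT1#2 (6.37 and 6.29) than in shDNMT1#1 (7.59 and 7.17), with the HDAC3 arrays from 7.78 to 7.99. The phosphatase PTPN11 (SHP2), which transmits growth factor signals to the ERK pathway, differed by -0.80 ± 0.08, and 5 other probe sets gave values from -0.30 to 0.20. LBR, the lamin B receptor of the nuclear envelope, differed by -0.73 ± 0.07, the sialyltransferase ST3GAL6 by -0.87 ± 0.08 and the lipid scramblase ANO6 by -0.62 ± 0.08. NGLY1, which strips sugars from misfolded glycoproteins, differed by -0.58 ± 0.07, but a second, dimmer probe set gave 0.10 and overlapped. SGTB, a co-chaperone, was dim, with 3.26 to 3.90 in DNMT1 knockdown and 4.04 to 4.25 in HDAC3 knockdown (-0.58 ± 0.14, adjusted p = 0.0131), and lost its call without shHDAC3#1 (adjusted p = 0.081).

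**Figure D3:**
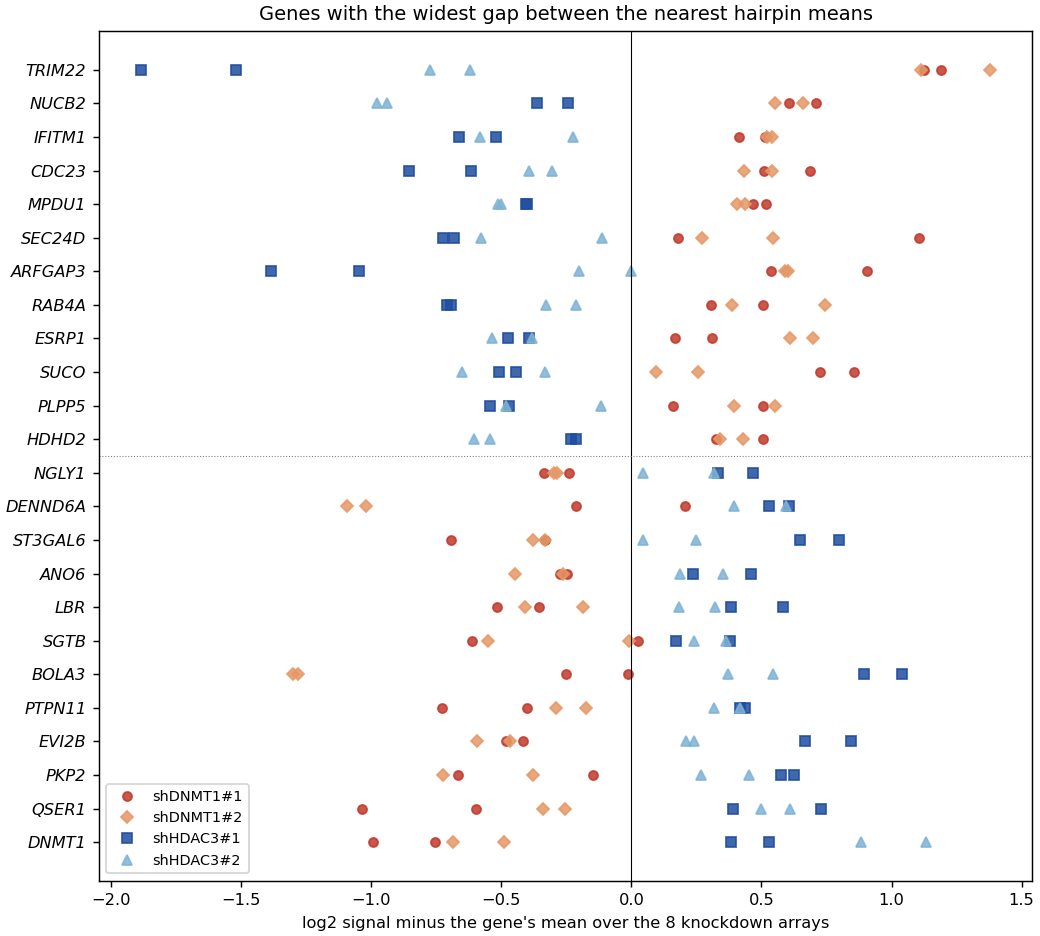
Signal of each knockdown array relative to the gene's mean over the 8 arrays (horizontal axis, log2) for the 12 genes with the widest positive gaps (top) and the 12 with the widest negative gaps (bottom). In each row the 4 DNMT1 knockdown arrays (red and orange) lie on one side and the 4 HDAC3 knockdown arrays (dark and light blue) on the other, with TRIM22 the farthest apart.

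Interferon-stimulated genes are switched on by the factor ISGF3, made of STAT proteins and IRF9, which binds the interferon-stimulated response element (ISRE). Of 34 measured genes on a list of interferon-stimulated and RNA-sensing genes, 10 were called higher and 0 lower in DNMT1 knockdown, against 5.68% and 3.33% of all genes. The median difference was 0.20, against 0.02 over all genes. After TRIM22 the largest was that of ISG20, an interferon-induced RNA exonuclease. It was at 8.67 and 8.61 in shDNMT1#1, 9.35 and 9.21 in shDNMT1#2, 8.09 and 8.19 in shHDAC3#1 and 7.19 and 7.51 in shHDAC3#2. The arrays of the knockdowns did not overlap, but shDNMT1#2 was above shDNMT1#1 and shHDAC3#1 above shHDAC3#2. In shLuc it was at 8.74 and 8.67, within the range of the DNMT1 arrays. The difference was 1.21 ± 0.08 (adjusted p = 8.35e-08). IRF9 itself differed by 0.70 ± 0.09 (adjusted p = 7.8e-05), ISG15, a ubiquitin-like modifier, by 0.40, HERC5, its ligase, by 0.45, and MX2, an antiviral GTPase, by 0.39. The chemokine CXCL10 was called (1.05 ± 0.10) but not separated: it was at 5.76 and 5.63 in shDNMT1#1, below shHDAC3#2 at 6.01 and 6.41, and at 7.54 and 7.33 in shDNMT1#2. Other classical members were not called, among them MX1 (0.24), IFIT1 (-0.28), IFI6 (0.08) and IFI27 (-0.20). With the hairpin as a random block 1 member, TRIM22, was called higher, and without probe sets that can cross-hybridize 6. IFITM1 is not on the list and enters none of its counts, here or below. Without shHDAC3#1, 5 members were called higher and 1 lower. TRIM22 (1.90) and ISG20 (1.61) kept their calls there, while IRF9 (0.40, adjusted p = 0.0651) did not.

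Promoters of IFITM1 and ISG20 are printed because these separated interferon-induced genes carry the letters of the ISRE. The window runs from 250 bases before to 50 bases after the start of the gene in RefSeq (GRCh38.p14). Capitals mark matches to GAAA, any 2 bases and GAAA again, searched on both strands, where overlapping matches count separately. The IFITM1 window (chr11:313790-314089, plus strand) holds 2 matches and the ISG20 window (chr15:88638766-88639065, plus strand) 1.
IFITM1: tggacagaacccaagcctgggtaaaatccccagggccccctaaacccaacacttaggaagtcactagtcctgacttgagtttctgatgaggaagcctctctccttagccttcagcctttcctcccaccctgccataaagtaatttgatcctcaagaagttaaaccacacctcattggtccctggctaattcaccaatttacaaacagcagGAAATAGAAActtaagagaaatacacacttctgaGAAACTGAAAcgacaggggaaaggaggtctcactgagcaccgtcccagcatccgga
ISG20: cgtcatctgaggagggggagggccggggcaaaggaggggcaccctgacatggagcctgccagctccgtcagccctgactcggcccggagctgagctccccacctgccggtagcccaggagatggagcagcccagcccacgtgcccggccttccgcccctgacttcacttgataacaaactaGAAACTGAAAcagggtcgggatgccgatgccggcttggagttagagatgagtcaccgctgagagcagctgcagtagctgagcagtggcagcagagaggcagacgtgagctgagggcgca
The motif was found in 453 of 15382 measured genes with a promoter entry (2.95%) and in 19 of the 26 list members with an entry (73.1%). It was present in 6 of the 8 of these members that were called higher and in 13 of the 18 that were not called, so that members with and without a call both carried it. These matches describe letters in a window, and no binding was measured. TRIM22 had no promoter entry.

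With the hairpins as fixed groups, many genes for making and folding secreted proteins were called higher in DNMT1 knockdown than in HDAC3 knockdown. With the hairpin as a random block 0 were called. Of 27 ER chaperones and stress sensors, 16 were called higher and 0 lower, with a median difference of 0.28. The second list has 24 genes: subunits of the oligosaccharyltransferase, which adds sugars to new proteins, of the translocon, which carries them into the ER, and of the signal recognition particle and its receptor, which bring ribosomes there. Of these 15 were called higher and 0 lower, with a median of 0.30, and of the particle and its receptor only SRPRA (0.31) was called. Members not called included EDEM3 (-0.14) and SEC62 (-0.19). The corresponding values over all genes were 5.68%, 3.33% and 0.02. Of the called members, 14 in each list had separated hairpin means. The largest difference was that of RPN2, a subunit of the oligosaccharyltransferase, at 11.06 and 11.20 in shDNMT1#1, 11.04 and 10.84 in shDNMT1#2, 8.18 and 8.18 in shHDAC3#1 and 10.52 and 10.68 in shHDAC3#2. The groups did not overlap, but most of the difference of 1.64 ± 0.07 (adjusted p = 9.95e-10) lay in shHDAC3#1: against that hairpin it was 2.86, and against shHDAC3#2 it was 0.43. Its 3 probe sets gave 1.64, 1.64 and 1.73, and all 3 are of a kind that can bind related transcripts. PDIA4, a disulfide isomerase, was at 9.82 and 9.59 in shDNMT1#1, 9.75 and 9.57 in shDNMT1#2, 7.77 and 7.41 in shHDAC3#1 and 9.07 and 9.28 in shHDAC3#2. It showed the same order, with a difference of 1.30 ± 0.09 (adjusted p = 1.51e-07). MAGT1, another oligosaccharyltransferase component, had a gap of only 0.07 beside a difference of 0.98.

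A smaller difference of the same direction was present against shHDAC3#2. The DNMT1 knockdown mean was above shHDAC3#1 for 23 of the 27 ER genes and above shHDAC3#2 for 20, with medians of 0.30 and 0.21. For the oligosaccharyltransferase and translocon list it was above for 21 and 20 of 24, with medians of 0.38 and 0.21. Over all genes the medians of the 4 pair differences between targets lay between -0.01 and 0.03. Without shHDAC3#1, 7 ER genes and 9 of the second list were called higher and 0 of either list lower. Without shDNMT1#2, 9 ER genes were called higher and 1 lower, and without probe sets that can cross-hybridize 9 of each list were called higher and 1 of each lower. Members called in all 4 pairs of hairpins were the chaperone cofactor DNAJC3, the disulfide isomerases P4HB and PDIA4, the sugar transferase subunit RPN2, the translocon subunit SEC61B and the translocon-associated SSR1 and SSR3. P4HB, the main disulfide isomerase, was at 10.26 to 10.60 in DNMT1 knockdown, 8.91 and 9.07 in shHDAC3#1 and 9.78 and 10.00 in shHDAC3#2 (0.95 ± 0.07, adjusted p = 4.13e-07). HSPA5 (BiP), the central chaperone of the ER, was at 10.69 to 10.93, 10.19 and 10.29, and 10.50 and 10.59 in the same hairpin order (0.45 ± 0.07, adjusted p = 0.000401). By contrast CANX (calnexin) was called (0.59 ± 0.07) but equal to shHDAC3#2 on average, with a difference of 0.00. The arrays of shHDAC3#1 were also those with the larger ACTB 3' to 5' difference given above, and its part in these values was not tested.

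**Figure D4:**
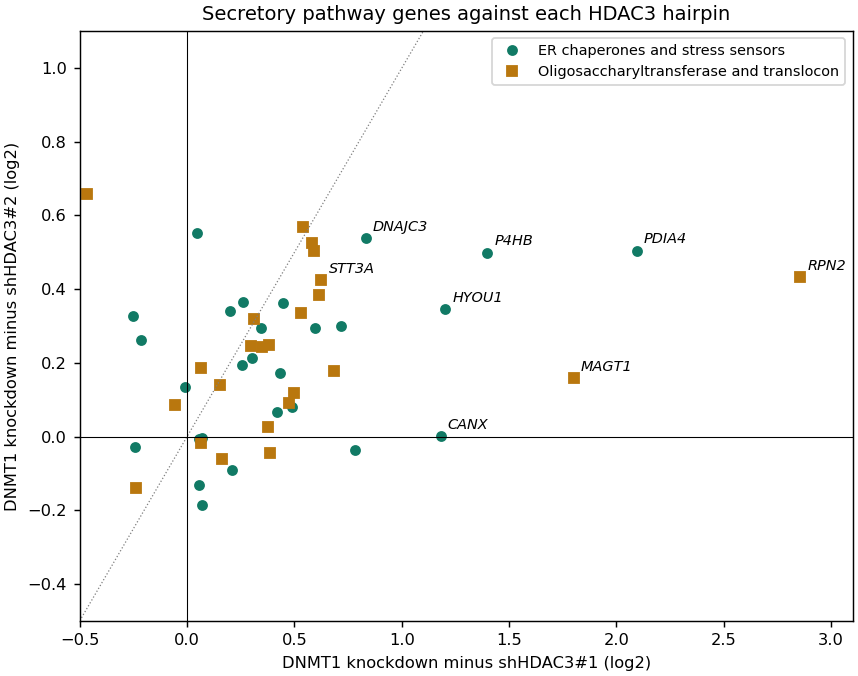
DNMT1 knockdown mean minus the mean of shHDAC3#1 (horizontal axis, log2) and of shHDAC3#2 (vertical axis, log2) for the 27 ER chaperones and stress sensors (circles) and 24 oligosaccharyltransferase and translocon genes (squares); the dotted line marks equal differences. RPN2, PDIA4, MAGT1, P4HB, HYOU1 and CANX lie far to the right, and most points of both lists lie above 0 on the vertical axis.

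The ER stress response element (ERSE) is read by ATF6 and XBP1 together with NF-Y. Searched as CCAAT, any 9 bases and CCACG on both strands of the same windows, it was found in 16 of 15382 promoters (0.104%). Of those 16 genes, 8 were called higher in DNMT1 knockdown (CALR, CANX, CRELD2, EIF2A, FICD, HSP90B1, HSPA5 and TRIM5), 1 lower (XBP1) and 7 not called, against 5.68% higher and 3.33% lower over all genes. The ER list counted above holds 5 of the 16, so that these counts in part repeat that list. CANX was not separated, and CALR lost its call without shHDAC3#1 (0.20, adjusted p = 0.227, limma). The promoters of HSPA5 and XBP1 are shown because both hold 1 match, in capitals, while the genes differed in opposite directions. The windows are chr9:125241294-125241593 and chr22:28800520-28800819 (GRCh38.p14, RefSeq), both on the minus strand.
HSPA5: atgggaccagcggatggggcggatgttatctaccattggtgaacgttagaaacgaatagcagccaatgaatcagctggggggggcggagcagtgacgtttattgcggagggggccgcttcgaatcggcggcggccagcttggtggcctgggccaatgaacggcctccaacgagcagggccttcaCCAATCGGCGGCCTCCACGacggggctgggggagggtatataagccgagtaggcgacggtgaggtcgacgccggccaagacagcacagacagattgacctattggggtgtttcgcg
XBP1: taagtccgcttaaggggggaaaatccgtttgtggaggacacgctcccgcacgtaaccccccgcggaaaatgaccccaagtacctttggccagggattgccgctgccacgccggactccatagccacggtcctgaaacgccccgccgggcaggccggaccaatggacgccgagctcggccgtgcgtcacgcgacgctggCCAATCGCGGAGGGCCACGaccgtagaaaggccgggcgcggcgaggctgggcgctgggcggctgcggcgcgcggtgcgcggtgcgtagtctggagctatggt
The motif and the genes were chosen after values had been seen.

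The plasma cell transcription factors XBP1, PRDM1 and IRF4 were called lower in DNMT1 knockdown, while the factors POU2AF1 and MAF of the same list were called higher. XBP1, which drives the ER programme, was at 10.28 and 9.99 in shDNMT1#1, 9.64 and 9.64 in shDNMT1#2, 10.62 and 10.68 in shHDAC3#1 and 10.41 and 10.50 in shHDAC3#2. It was lower in all 4 DNMT1 arrays, by -0.67 ± 0.07 (adjusted p = 1.3e-05). A second, dimmer probe set of XBP1 gave 0.08 and was not separated. The pair shDNMT1#1 minus shHDAC3#2 was not called for XBP1 (-0.32, adjusted p = 0.0797, limma). PRDM1 (Blimp-1), the repressor that ends the B cell programme, was at 8.86 and 8.59, 8.37 and 8.57, 9.51 and 9.80, and 9.04 and 9.01 in the same order. No arrays overlapped, the difference was -0.75 ± 0.08 (adjusted p = 1.66e-05), and its other 2 probe sets gave -0.52 and -0.28. The same pair of hairpins was not called for PRDM1 either (-0.30, adjusted p = 0.183, limma). IRF4, on which myeloma cells depend, was at 8.81 and 8.71, 9.09 and 8.99, 9.46 and 9.64, and 9.13 and 9.28 (-0.48 ± 0.07, adjusted p = 0.000201), but shDNMT1#2 and shHDAC3#2 differed by only 0.17, and the call was lost without shHDAC3#1 (-0.31, adjusted p = 0.06). Other probe sets of IRF4 gave -0.36, not separated, and, in a dim one, 0.15. TNFRSF17 (BCMA), the plasma cell receptor for survival factors, was at 9.44 to 9.74 in DNMT1 knockdown, 10.79 and 10.87 in shHDAC3#1 and 9.92 and 10.12 in shHDAC3#2 (-0.84 ± 0.07, adjusted p = 7.87e-07). These 4 genes were the ones called lower among 26 on the plasma cell list, against 3.33% of all genes.

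On the same list 8 genes were called higher, against 5.68% of all genes. The elongation factor ELL2, which favours the secreted form of antibody mRNA, was at 7.13 to 7.50 in DNMT1 knockdown and 6.63 to 6.87 in HDAC3 knockdown (0.66 ± 0.09, adjusted p = 8.64e-05). SEC11C, a subunit of the signal peptidase, was at 10.77 to 10.92 and 10.13 to 10.30 (0.65 ± 0.06, adjusted p = 7.59e-06). Both had arrays that did not overlap, with little difference between hairpins of 1 target. POU2AF1, a B cell coactivator, differed by 0.43, FKBP11, a folding enzyme of secretory cells, by 0.48, the integrin ITGB7 by 0.68 and the costimulatory receptor CD28 by 0.40. MAF, a myeloma oncogene, differed by 0.26 and was not separated, and SSR4 of the translocon differed by 0.26. The list median was 0.07. Without shHDAC3#1, 3 members were called higher and 5 lower, and ITGB7 (0.23, adjusted p = 0.241) lost its call. Under the random block 0 members were called.

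Antigen presentation genes that were called were higher in DNMT1 knockdown, but the calls depended on the hairpins. Of 15 class II genes, which show peptides to helper T cells, 7 were called higher and 0 lower (median 0.22), against 5.68%, 3.33% and a median of 0.02 over all genes. CIITA, the activator of class II genes (-0.08), and HLA-DOB (-0.17) were among those not called. HLA-DMA, which loads peptides onto class II molecules, was at 5.74 and 5.85 in shDNMT1#1, 6.39 and 6.33 in shDNMT1#2, 4.65 and 4.61 in shHDAC3#1 and 5.26 and 5.26 in shHDAC3#2. It did not overlap (1.13 ± 0.08, adjusted p = 2.12e-07) and was the only member called in all 4 pairs. HLA-DRA, the class II alpha chain, was called with 0.90 ± 0.07, but shDNMT1#1, at 8.17 and 8.15, was only 0.04 above shHDAC3#2. Of 17 class I and peptide loading genes, 10 were called higher and 0 lower (median 0.25), among them the immunoproteasome subunits PSMB8, PSMB9 and PSMB10 (0.25, 0.40 and 0.43) and the loading chaperone CALR (0.40). Without shHDAC3#1, 3 class II genes were called higher, and of the class I genes 0 were called higher and 1 lower. Without shDNMT1#1, 8 class II and 3 class I genes were called higher and 2 of each lower. With the hairpin as a random block 0 of either list were called. Probe sets of HLA genes can bind sequences of related genes. Without such probe sets HLA-F (-0.10) and HLA-DPB1 (-0.08) turned in sign, and 3 class II and 4 class I genes were called higher.

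Targets of p53 were called higher in 9 of 25 cases and lower in 0 (median 0.09), against 5.68%, 3.33% and a median of 0.02 over all genes, and 0 were called under the random block. CDKN1A (p21), the p53-induced inhibitor of cyclin-dependent kinases, was on a separate list of CDK inhibitors. It was at 10.61 and 10.52 in shDNMT1#1, 10.94 and 10.85 in shDNMT1#2, 10.17 and 10.16 in shHDAC3#1 and 9.48 and 9.65 in shHDAC3#2. All DNMT1 arrays were above all HDAC3 arrays, and shLuc, at 9.64 and 9.51, lay with shHDAC3#2. CDKN1A differed by 0.86 ± 0.06 (adjusted p = 3.32e-07). TP53INP1, a stress protein of autophagy and cell death, differed by 0.73 ± 0.09, SESN1, an inhibitor of mTOR signalling, by 0.65 ± 0.07, the death receptor TNFRSF10B by 0.55 ± 0.08 and the DNA damage sensor DDB2 by 0.43 ± 0.07. These 4 were called in all 4 pairs of hairpins, and adjusted p-values ranged from 2.53e-05 to 0.000551. Unlike CDKN1A, TP53INP1 had a shLuc mean, 8.85, above both DNMT1 hairpin means (8.60 and 8.26). TNFRSF10B had a mean of 8.84 in shLuc and 8.84 in DNMT1 knockdown, against 8.29 in HDAC3 knockdown. For SESN1 the shLuc mean, 7.91, lay below both DNMT1 hairpin means (7.94 and 8.39). The splicing-related ZMAT3 (0.60), the kinase PLK2 (0.62), TIGAR (0.45), PMAIP1 (0.43) and GADD45A (0.26) were the other called members, of which PLK2 and GADD45A were not separated. With single hairpins left out in turn, 7 to 12 members were called higher and 0 to 3 lower. Among all 19775 genes the same settings called 377 to 1806 higher and 280 to 1705 lower. MYC differed by 0.04 ± 0.06 (adjusted p = 0.793): it was at 11.01 and 10.87, 11.48 and 11.34, 10.72 and 10.75, and 11.49 and 11.59 in the same hairpin order as CDKN1A, so that each target had a higher and a lower hairpin. Its difference was -0.36 without shHDAC3#1 (adjusted p = 0.0295), 0.44 without shHDAC3#2 (adjusted p = 0.000424), 0.27 without shDNMT1#1 (adjusted p = 0.0336) and -0.20 without shDNMT1#2.

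For the G2/M and mitosis list the direction of the calls turned with the hairpin left out. Of 36 G2/M and mitosis genes, 1 was called higher (DLGAP5) and 8 lower (RACGAP1, PRC1, CCNA2, CDK1, ANLN, CENPF, CCNB1 and BUB3), against 5.68% and 3.33% of all genes, but none of these 9 had separated hairpin means. CDK1, the mitotic kinase, was at 9.27 and 8.95 in shDNMT1#1, 7.81 and 7.80 in shDNMT1#2, 9.48 and 9.65 in shHDAC3#1 and 8.17 and 8.39 in shHDAC3#2. The order followed the hairpin and not the target: the first hairpins of both targets were high and the second ones low. The mean of the DNMT1 knockdown was above shHDAC3#1 for 2 of the 36 genes and above shHDAC3#2 for 32. Without shHDAC3#1, 14 members were called higher and 1 lower, and without shHDAC3#2, 0 higher and 22 lower. Of 37 genes of DNA replication, 2 were called higher (CDC45 and POLA2) and 1 lower (RFC2), close to the background, with POLA2 and RFC2 losing their calls without shHDAC3#1 (0.28, adjusted p = 0.175, and -0.31, adjusted p = 0.11). The list had medians of -0.13 against shHDAC3#1 and 0.15 against shHDAC3#2.

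Of 13 NCoR/SMRT and histone deacetylase genes beside HDAC3, 1 was called higher and 2 lower, against 5.68% and 3.33% of all genes. TBL1XR1, a subunit of the NCoR and SMRT complexes in which HDAC3 works, was the higher one. It was at 10.59 and 10.62 in shDNMT1#1, 10.15 and 10.09 in shDNMT1#2, 8.91 and 9.20 in shHDAC3#1 and 9.58 and 9.69 in shHDAC3#2. The groups did not overlap (1.02 ± 0.07, adjusted p = 2e-07), and shLuc was at 10.53 and 10.54. HDAC9 (-0.38) and HDAC7 (-0.28) were called lower with gaps of -0.07 and -0.01, and without shHDAC3#1 both lost their calls (-0.07, adjusted p = 0.841, and -0.19, adjusted p = 0.311). Of 15 genes of the DNA methylation machinery beside DNMT1, the remodeller HELLS (0.36) and ZBTB33 (0.35) were called higher and the methyl-CpG binders MBD1 (-0.26) and MBD4 (-0.29) lower. HELLS (0.16, adjusted p = 0.624) and MBD1 (-0.30, adjusted p = 0.127) lost their calls without shHDAC3#1, and MBD1 also without shDNMT1#2 (-0.08, adjusted p = 0.822). Of 11 Polycomb repressive complex 2 genes, SUZ12 (-0.40) and JARID2 (-0.32) were called lower, with arrays that did not overlap and gaps of -0.16 and -0.11. SUZ12 lost its call without shHDAC3#1 (-0.17, adjusted p = 0.439) and JARID2 without shDNMT1#2 (-0.19, adjusted p = 0.245). Genes often named as targets of DNA methylation differed little: 2 of 26 cancer-testis genes (MAGEA4, 0.27, and MAGEB1, 0.31) and 1 of 18 imprinted genes (MEST, 0.44) were called higher and 0 lower, near the 5.68% of all genes, and 1 of 10 histone acetyltransferases (KAT6B, -0.25) was called lower.

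The other lists held single genes with wide differences, and their counts are to be read against 5.68% called higher and 3.33% lower over all genes. GALNT3, which starts mucin-type glycans, was at 5.56 to 6.31 in DNMT1 knockdown, 3.53 and 3.78 in shHDAC3#1 and 5.37 and 5.53 in shHDAC3#2 (1.40 ± 0.10). The groups touched without overlap, and the gap was 0.23. A second, dim probe set of GALNT3 gave -0.02. C1GALT1, which extends those glycans, differed by -0.60, but its other probe sets gave -0.07, not separated, and -0.14. LAMP3, a lysosomal membrane protein, was at 6.09 to 6.76, 4.89 and 4.89, and 5.68 and 5.91 (1.11 ± 0.08), and the protease CTSS differed by 0.77. The survival kinase PIM2 was at 10.80 to 10.98, 9.55 and 9.79, and 10.40 and 10.61 (0.84 ± 0.07, adjusted p = 2.51e-06). IL6ST, the shared receptor chain of the IL-6 family, was called with -0.69 ± 0.08, but the shDNMT1#1 arrays, at 9.03 and 8.77, overlapped with HDAC3 knockdown and the shDNMT1#2 arrays were at 7.70. In cholesterol synthesis MSMO1 was at 8.49 to 9.02 in DNMT1 knockdown and 9.32 to 9.61 in HDAC3 knockdown (-0.71 ± 0.07, adjusted p = 1.32e-05), while SCD (0.58), LSS (0.55) and FDPS (0.31) were higher, and 6 of 23 members were called higher and 3 lower. The amino acid transporter SLC7A5 was at 7.90 to 8.09 and 8.42 to 8.56 (-0.48 ± 0.06, adjusted p = 7.8e-05). FOS, an early response transcription factor, was at 6.05 to 6.42 and 4.79 to 5.87 (0.85 ± 0.11). DUSP4, a phosphatase of ERK, differed by 0.46 with a gap of only 0.04. Its DNMT1 arrays, at 8.77 to 9.03, overlapped with shHDAC3#1 at 8.77 and 8.93, while shHDAC3#2 was at 8.02 and 8.18. Of 27 glycolysis and hypoxia genes, LDHA (0.37) and ENO2 (0.43) were called higher and HK2 (-0.43), ADM (-0.48) and HIF1A (-0.27) lower. Proteasome genes were called higher in 3 of 26 cases and lower in 2, with PSMA1 (0.72) and POMP (-0.54) the extremes. Without shHDAC3#1 PSMA1 lost its call (0.19, adjusted p = 0.326), as did C1GALT1, CTSS, SCD, LSS, FDPS, ADM and HK2, and without shDNMT1#2 IL6ST did (-0.09, adjusted p = 0.80).

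**Figure D5:**
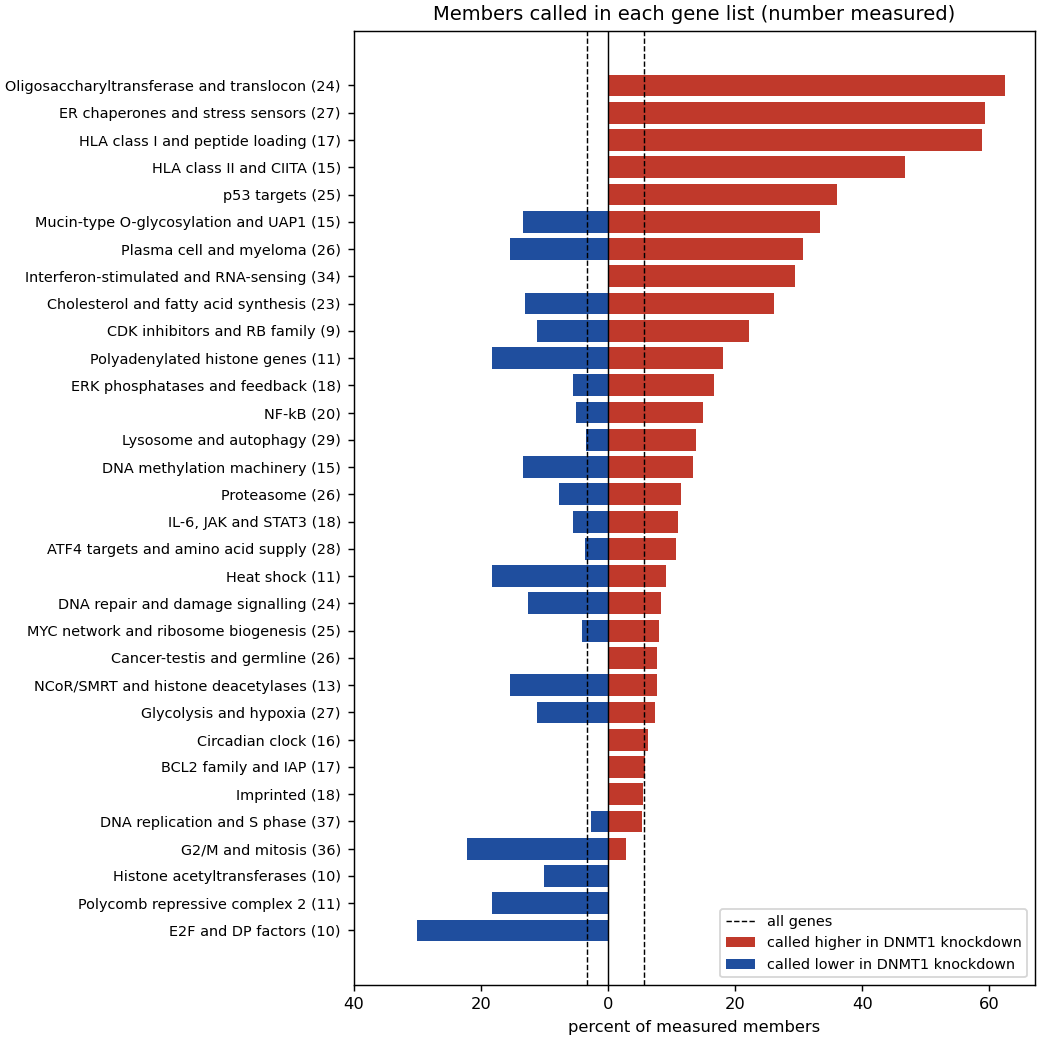
Percent of the measured members of each of the 32 gene lists called higher (right) or lower (left) in DNMT1 knockdown, limma at an adjusted p under 0.05, with the number measured in brackets. Dashed lines mark all genes, 5.68% higher and 3.33% lower; the oligosaccharyltransferase and translocon list (15 of 24) and the ER chaperone list (16 of 27) reach farthest to the right.

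Where shLuc lay between the knockdowns was read from its mean alone, as a description. Of the 690 genes called higher and separated, it was nearer to the DNMT1 knockdown mean in 504 (73.0%), and of the 350 called lower it was nearer to the HDAC3 knockdown mean in 273 (78%). It lay above all 4 hairpin means in 233 and 169 of them and below all 4 in 36 and 7. The position of shLuc was not counted over all genes, so that these shares have no background beside them. Genes at the edge of the separation rule were DYNC2I2 and EXOSC1, with gaps of 5e-05 and 0.0002, and, just outside, FAM216A and DUSP5, whose nearest means were 0 and 0.00025 from separation. The median gap of the 1040 genes was 0.14 in size. Of the called genes, 742 were not separated. In some of them 1 hairpin stood apart from the other 3. LGALS1 (galectin-1) had hairpin means of 11.002 in shDNMT1#1 and 8.56 in shDNMT1#2, against 8.81 and 8.51 in HDAC3 knockdown. DKK1, an inhibitor of Wnt signalling secreted by myeloma cells, had 6.76 in shHDAC3#1 and between 4.39 and 4.65 in the other 3 hairpins. In others the hairpins of both targets differed, as for the mitotic kinase PBK, at 7.74 in shDNMT1#1, 6.25 in shDNMT1#2, 8.73 in shHDAC3#1 and 7.33 in shHDAC3#2.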

How the data were processed

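Each of the 10 arrays has 54675 log2 values, one per probe set, which the authors deposited after processing with RMA (named in the submitters' processing notes). RMA subtracts background, makes probe distributions equal across arrays and combines the probes of a set. The sources used here do not name the RMA version or say whether the arrays were processed together. Near the background, signals follow RNA amount weakly, so that differences of dim genes may be too small. Precision is limited by the number of arrays.

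In the platform annotation 41091 probe sets had 1 symbol, 1801 had several and 11783 had none, and only the first kind was named. The brightest probe set stood for each of 19775 genes, of which 10523 had more than 1. The log2 values were fitted with limma 3.58.1 in R 4.3.3 (lmFit, eBayes with trend) as 4 hairpin groups of 2 arrays, with 4 residual degrees of freedom. DNMT1 knockdown was the mean of its 2 hairpin groups and HDAC3 knockdown likewise. All tests were two-sided, with Benjamini-Hochberg adjustment over all genes, and a gene with an adjusted p under 0.05 was called. The error holds no variation between hairpins of 1 target.

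The members, the 32 gene lists (661 of 719 entries measured) and the tests were chosen with earlier results of these data known. Named were both targets, the 12 genes highest and 12 lowest by gap among called and separated genes (symbols starting with LOC left out), up to 4 called and separated members of each list with the largest difference, and MYC, CDKN1A, IRF4, PRDM1 and UHRF1; other genes named were chosen after their values were seen. In a test on simulated data for this comparison over 19775 genes, 98% of 100 genes changed by 0.5 and 100% of 100 changed by 1 were recovered, and 18 of 216 calls were false. The simulation held no variation between hairpins. Promoter windows came from RefSeq (GRCh38.p14) and were matched by gene ID for 15382 of the genes.

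Same-numbered replicates did not deviate together: between hairpins, correlations of their deviations ran from -0.34 to 0.14. Alternatives covered dim probe sets (removed below a mean of 5), averaging over a gene's probe sets, dropping those that can cross-hybridize, 2 further scalings, eBayes without trend, all 10 arrays in the model, the hairpin as a random block or as 1 value, the replicate number as a block, array SD as a covariate, and leaving out each hairpin or array.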

Additional observations from a re-analysis of the deposited data

How the results depend on the processing

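The count of 1782 called genes depended most on how hairpins were treated. With the hairpin as a random block, limma called 6 genes, 5 higher and 1 lower, with 989 at an unadjusted p under 0.05. With each hairpin mean as 1 value, 2 against 2, it called 0 genes, 0 higher and 0 lower, with 536 at an unadjusted p under 0.05 and a lowest adjusted p of 0.998. Without shDNMT1#1 the count was 3488 (1783 higher, 1705 lower), without shHDAC3#2 2787 (1806 higher), and without shHDAC3#1 888 (377 higher), of which 560 were among the 1782. Without shDNMT1#2, 280 genes were called lower. The share of higher genes among those called was 63.1% and became 51.1%, 79.9% and 42.5% without shDNMT1#1, shDNMT1#2 and shHDAC3#1. With array SD as a covariate 2679 genes were called, 1019 lower. Leaving out 1 array gave 1141 to 2320 called genes, 654 to 1484 higher and 352 to 836 lower, with the lowest total without replicate 2 of shHDAC3#1 and the highest without replicate 2 of shDNMT1#1. It gave 5395 to 6602 separated genes, of which 646 (without replicate 1 of shHDAC3#2) to 1453 were also called. The other settings gave 1230 to 2129 called genes, with 56.1% higher after a further quantile normalization and 54.6% after centring on the array median. The replicate numbers are only shared, so the fit with the replicate number as a block, which called 1505 genes, is given only here. The named genes held 97 calls. Of these, 81 were kept with every single array left out, 39 of the 99 named genes lost their call without shHDAC3#1 and 91 with the random block. Signs turned without probe sets that can cross-hybridize for NGLY1 (0.10), POLA2 (-0.0008), HDAC7 (0.0067), HLA-F (-0.10), HLA-DPB1 (-0.075), GALNT2 (-0.034) and TIMELESS (-0.18). MYC turned to -0.20 without shDNMT1#2 and to -0.36 without shHDAC3#1, and UHRF1 to -0.31 without shHDAC3#1. The causes were not tested. The number of arrays, 2 for each hairpin, limits what can be told, and genes near the background limit it further.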
